A study of Homo sapiens with 4 samples.

Results

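The 8 genes described here encode protein kinase C (PKC) isoforms: PRKCA, PRKCB, PRKCD, PRKCE, PRKCH, PRKCI, PRKCQ and PRKCZ. They were taken by gene symbol from a table of 60308 gene identifiers. The set was chosen by the fold of siZBTB7A over siNTC of PRKCE, which was already known to be low, so the difference between the siRNA groups is given for all 8 as a description with no test. RNA was sequenced from VCaP, an established prostate cancer cell line, grown in medium with 10% serum. One group received the non-targeting siRNA siNTC and the other the siRNA siZBTB7A, against the zinc finger repressor ZBTB7A. Each group had 2 tables, and the labels name no separate cultures or transfections.

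PKC enzymes are serine/threonine kinases that act downstream of receptors coupled to phospholipase C. The conventional isoforms (such as alpha and beta) respond to diacylglycerol and calcium, the calcium-independent isoforms (delta, epsilon, eta, theta) to diacylglycerol alone, and the atypical isoforms (iota, zeta) to neither, being directed instead by protein partners such as the PAR polarity complex. In prostate cancer PKC epsilon has been studied as a growth-promoting isoform and PKC delta as a mediator of death after phorbol ester, while PKC beta and PKC theta are best known from lymphocytes.

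Gene reads on the kit's strand ranged from 5556061 to 5927656 per table. For genes of 20 reads or more, the ratio of chi-square to its degrees of freedom came to 0.993 between the siNTC tables (12762 genes) and 0.995 between the siZBTB7A tables (12645 genes), against 3.50 to 3.64 across groups. The tables of a group thus differed by no more than sampling noise and were counted as 1 sample each. No difference below has a replicate check, and every interval covers counting error only. ZBTB7A itself had 90 and 115 reads with siNTC and 70 and 74 with siZBTB7A, a fold of 0.743 (95% interval 0.597 to 0.924). All 9 luminal and VCaP markers examined had reads, ERG with 3571 and 3420 per group. Of the leukocyte markers, CD3D, CD3E and MS4A1 were at 0 in all 4 tables and PTPRC had 1 read in all. Others had reads, given for siNTC and siZBTB7A: CD14 17 and 23, LCK 7 and 13, CD79A 6 and 6, CORO1A 4 and 4, and CD68 1 and 1. The 10 leukocyte markers together reached 3.01 to 3.11 CPM (reads per 1000000 TMM-adjusted gene reads) in siNTC and 4.02 to 4.42 CPM in siZBTB7A, and their part in any result was not tested.

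Of the 8 genes, 6 had enough reads to pass the low-count filter and 2 had none. PRKCB (chromosome 16), the calcium-dependent beta isoform, and PRKCQ (chromosome 10), the theta isoform of T cells, had 0 reads in each of the 4 tables. The groups held 11665394 (siNTC) and 11301923 (siZBTB7A) gene reads. Taken as up to 3 reads in the summed tables of a group, a count of 0 allows up to 0.255 and 0.270 CPM at the TMM-adjusted depths. Neither gene had reads on its opposite strand either, and the noncoding neighbour PRKCQ-AS1 was also at 0. No fold was computed for these 2 genes. The plot of CPM by table shows the 8 genes side by side.

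**Figure D1:**
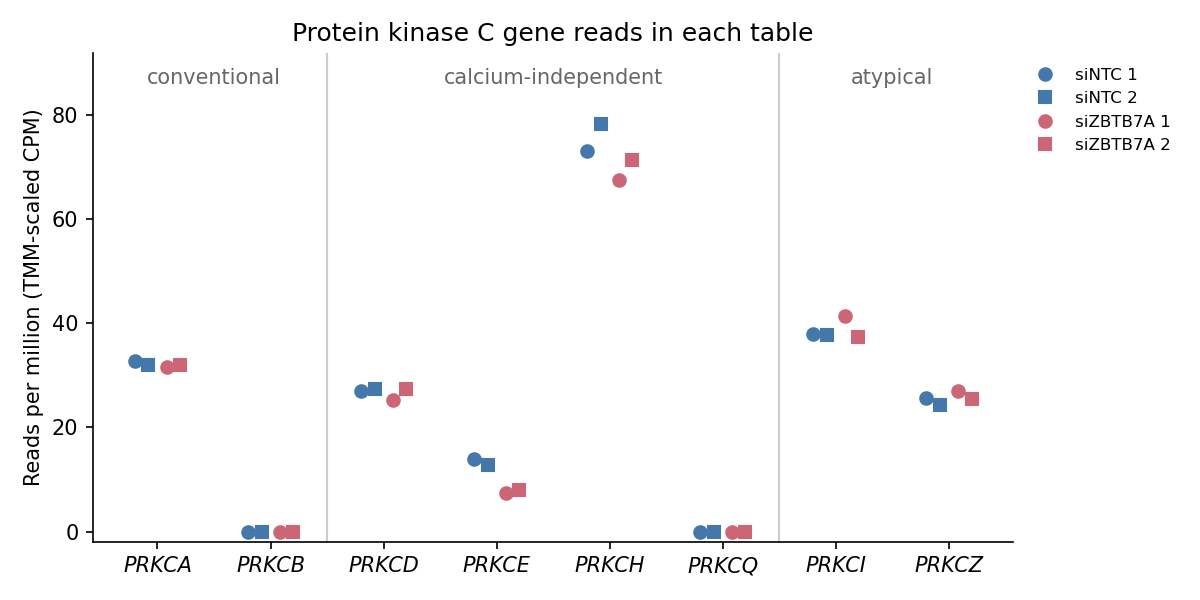
CPM of the 8 PKC genes (y axis, scaled by TMM factors) in each of the 4 tables, one point per table, ordered by class. PRKCE is the lowest of the counted genes, with siNTC tables at 14.0 and 12.9 CPM and siZBTB7A tables at 7.32 and 7.96 CPM, and PRKCB and PRKCQ lie at 0.

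PRKCE (chromosome 2) encodes PKC epsilon, a calcium-independent isoform activated by diacylglycerol. Its reads numbered 81 and 77 with siNTC, against 40 and 45 with siZBTB7A. Scaled to depth these were 14.0, 12.9, 7.32 and 7.96 CPM. Both siZBTB7A tables lay below both siNTC tables, a separation that 23.4% of the 12848 tested genes showed in this direction. Summed over tables, the level in siZBTB7A was 0.569 of that in siNTC (95% interval 0.432 to 0.746). The 4 pairings of a siZBTB7A table with a siNTC table gave folds of 0.523 to 0.618. Of 11633 tested protein-coding genes, 52 (0.447%) had a fold at or below that of PRKCE, itself included. Of all 12848 tested genes, 108 (0.841%) did. These are the values for which the gene was chosen, so they carry no test. PRKCE had 0 reads on its opposite strand in all tables, and the 3 annotated antisense genes within it had 0 reads on their own strand.

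The other calcium-independent isoforms with reads, PRKCH and PRKCD, were more abundant than PRKCE and nearer to the control. PRKCH (chromosome 14) encodes PKC eta, an isoform typical of epithelia, and held the most reads of the family, with 423 and 469 in siNTC and 370 and 404 in siZBTB7A. Its siNTC tables (73.1 and 78.4 CPM) lay above its siZBTB7A tables (67.7 and 71.5 CPM), without overlap but with a small gap. Such a separation in this direction was shown by 23.4% of the 12848 tested genes. The fold was 0.918 (0.833 to 1.012). PRKCD (chromosome 3) encodes PKC delta. It had 156 and 164 reads in siNTC and 138 and 155 in siZBTB7A, and its groups overlapped, with a fold of 0.969 (0.824 to 1.14). Together PRKCH and PRKCD, without PRKCE, stood at 0.932 of the control (0.857 to 1.01).

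PRKCA (chromosome 17), the calcium-dependent alpha isoform, was the one conventional gene among the 8 with reads. It had 190 and 191 reads in siNTC and 173 and 181 in siZBTB7A, with overlapping CPM of 32.8 and 31.9 against 31.6 and 32.0. Its fold was 0.983 (0.848 to 1.14). A difference smaller than this interval was not detectable at this depth.

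Both atypical genes had point estimates above 1. PRKCI (chromosome 3) encodes PKC iota, the kinase of the PAR polarity complex, and had 220 and 226 reads in siNTC and 227 and 211 in siZBTB7A. Its groups overlapped, with a fold of 1.04 (0.909 to 1.19). PRKCZ (chromosome 1) encodes PKC zeta and had 149 and 146 reads in siNTC and 148 and 144 in siZBTB7A, with a fold of 1.05 (0.888 to 1.24) and overlapping groups. For both genes the interval includes 1.

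**Figure D2:**
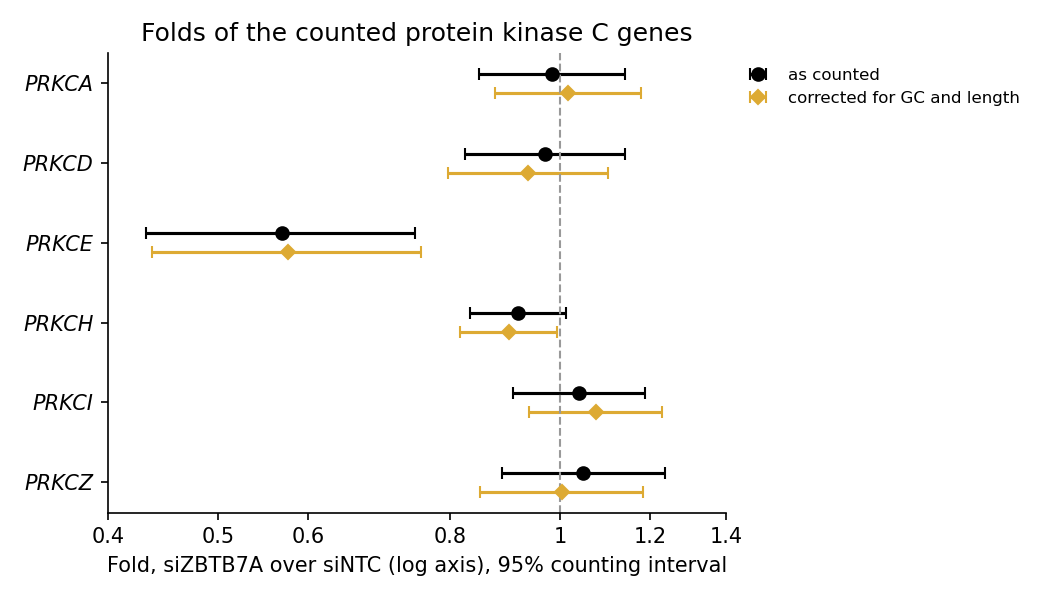
Fold of siZBTB7A over siNTC (x axis, log scale) with 95% counting intervals for the 6 PKC genes with reads, as counted (black) and after a correction for transcript GC content and length (yellow). The interval of PRKCE, 0.432 to 0.746 as counted, lies below those of the other 5 genes. PRKCE was chosen for its low fold, so this place carries no test.

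Read as a pool, the 8 genes had 2492 reads in siNTC and 2236 in siZBTB7A, a fold of 0.950 (0.896 to 1.01). Without PRKCE the fold was 0.975 (0.919 to 1.04). PRKCE made up 6.34% of PKC reads in siNTC (exact binomial 95% interval 5.42% to 7.37%) and 3.80% in siZBTB7A (3.05% to 4.68%). The share does not depend on how the libraries are scaled. It comes from the same reads as the fold for which PRKCE was chosen, so it carries no test. PRKCH made up 35.8% and 34.6%, PRKCI 17.9% and 19.6%, and PRKCA 15.3% and 15.8%. The calcium-independent class as a whole took 55.0% (53.0% to 56.9%) and 51.5% (49.4% to 53.6%) of the reads. This class includes PRKCE, the gene chosen for its low fold. Without PRKCE the class had a fold of 0.932 (0.857 to 1.01). The median log2 fold of the 6 genes with reads was -0.03, beside 0.0008 over all tested genes.

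**Figure D3:**
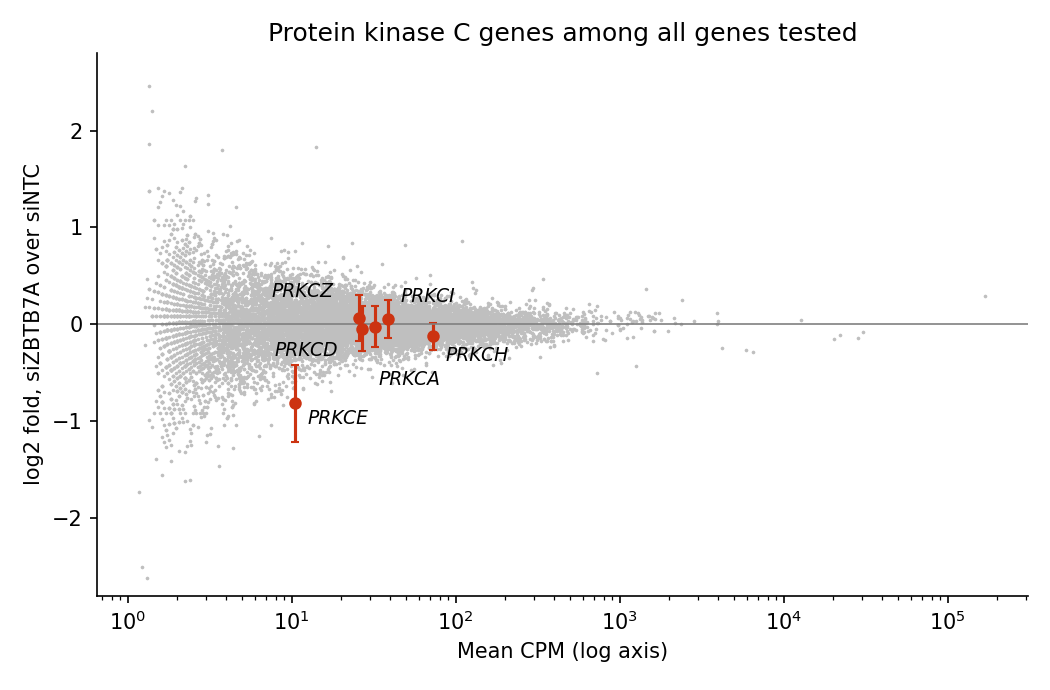
Log2 fold of siZBTB7A over siNTC (y axis) against mean CPM (x axis, log scale) for 12848 tested genes (grey) and the 6 PKC genes with reads (red, with 95% counting intervals). PRKCE, chosen for its low fold and at a log2 fold of -0.81, lies at the lower edge of genes of its abundance. The other 5 lie inside the cloud.

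Among the other protein-coding genes with a mean CPM within 2 times that of PRKCE (3355 genes), 2 had a fold at or below it. PRKCE was chosen by this fold, so its place among them carries no test. The 5 with the nearest log2 fold were RHOBTB1 (0.572), MSTO1 (0.576), NPRL3 (0.585), ZNF239 (0.594) and ZNF354C (0.597), all within 0.07 of PRKCE on the log2 scale. The likeness rests on a single difference between 2 libraries. PRKCE is a long gene, with a span of 536.6 kb in GENCODE 29. The 431 tested protein-coding genes that span 300 kb or more had a median fold of 0.960, with 22 called lower and 1 higher, and the 11202 shorter ones a median of 1.004, with 281 and 275. PRKCA (508.1 kb) and PRKCH (363.4 kb) belong to the long group too, at 0.983 and 0.918. The part of gene span in the PRKCE value was not tested. Corrected for the GC content and length of the longest transcript, PRKCE stood at 0.576 (0.437 to 0.755). The corrected interval of PRKCH, 0.817 to 0.993, no longer included 1.

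Levels of different isoforms were compared per length, as TPM (reads per length, scaled to a fixed total per table) over merged exon length. In siNTC the order was PRKCH at 15.4 TPM (14.4 to 16.4), PRKCD at 14.4 (12.8 to 16.0), PRKCI at 11.6 (10.6 to 12.8), PRKCZ at 5.89 (5.24 to 6.60), PRKCA at 5.21 (4.70 to 5.76) and PRKCE at 2.43 (2.07 to 2.84). The counting intervals of PRKCH and PRKCD overlapped, as did those of PRKCZ and PRKCA, so neither pair is ordered by these data. In siZBTB7A the order was the same, with PRKCE at 1.37 TPM (1.10 to 1.70), and the intervals of PRKCD and PRKCI then overlapped as well. PRKCA was 2.14 times as high as PRKCE in siNTC and 3.70 times in siZBTB7A.

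The order depended on the length used. Per length of the longest transcript PRKCZ came second in siNTC, at 17.2 TPM, and per coding length PRKCI came second, at 32.7 TPM, with PRKCA at 24.7 ahead of PRKCD at 20.7. PRKCH was first and PRKCE last of the 6 under all 3 lengths and in both groups. PRKCE was at 3.79 TPM per longest transcript and 9.36 TPM per coding length in siNTC.

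**Figure D4:**
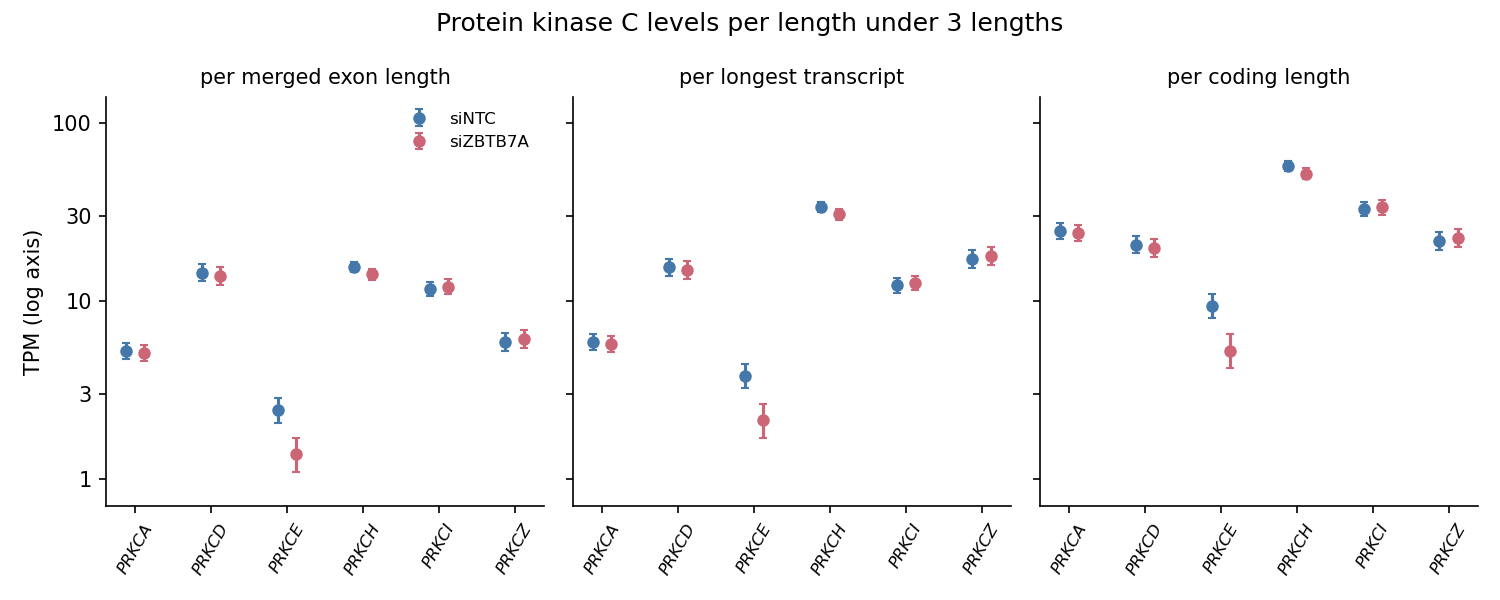
Level of the 6 PKC genes with reads (y axis, TPM on a log scale) per merged exon length, longest transcript and coding length, with 95% counting intervals, in siNTC (blue) and siZBTB7A (red). PRKCH is highest and PRKCE lowest in each panel, while the genes between them change places.

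The count of PRKCZ drew on a region shared with another gene. In GENCODE 29 its exons overlap those of FAAP20, a Fanconi anemia pathway gene on the opposite strand, over 590 bases, and those of 2 antisense RNA genes over 266 and 83 bases. Without strand, reads in such overlaps are not assigned, and PRKCZ then had 87, 90, 100 and 84 reads in place of 149, 146, 148 and 144. At least 62, 56, 48 and 60 reads, or 32.4% to 41.7% of its count, therefore lay where exons of both strands overlap. The FAAP20 exons also carried 115 to 128 reads per table on the strand of PRKCZ. By unstranded counts the fold of PRKCZ was 1.10 (0.892 to 1.36), and its siNTC level per merged exon length was 3.55 TPM in place of 5.89, below PRKCA at 5.23 TPM. PRKCH overlaps TMEM30B on the opposite strand over 356 bases, but its count differed by at most 4 reads between the stranded and unstranded columns. The other 4 counted PKC genes differed by at most 1 read.

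The promoter windows of the family were searched for GACCC, a short core described for DNA binding by ZBTB7A, on both strands (read as GGGTC on the other). Binding was not measured in the data used here, so a match is a description of letters. All 8 genes had RefSeq windows on GRCh38.p14, 13 in total, each from 250 bases before a start to 50 bases after. The letters occurred in 7 windows from 5 genes (PRKCB, PRKCD, PRKCH, PRKCQ and PRKCZ), and in 47.6% of all 35116 windows. The windows of PRKCE, PRKCA and PRKCI held none. PRKCD and PRKCZ had several windows each, some without the letters, and so more places for a match than the other genes. The match nearest to a start is shown for each of the 5 genes, with its 5 letters in capitals and 10 bases on each side. This lets the counted genes PRKCH, PRKCD and PRKCZ be set beside the uncounted PRKCB and PRKCQ. The lower-case bases of PRKCB hold a further match, GGGTC, 211 bases before the start.
PRKCH (chr14:61321533-61321557, plus strand, 36 bases before the start): cacgcccctgGGGTCcggaaggcgc
PRKCD (chr3:53161432-53161456, plus strand, 65 bases before): agtgagggccGGGTCcgggcgcggg
PRKCZ (chr1:2074025-2074049, plus strand, 36 bases before): tcagcattttGGGTCtgagtcccgg
PRKCB (chr16:23835771-23835795, plus strand, 202 bases before): cgggtccgacGACCCcgggctgcgg
PRKCQ (chr10:6580697-6580721, minus strand, 65 bases before): agagaaaagaGACCCagctctttcc
The letters were thus present in windows of genes with many reads and of genes with none. The windows of the 2 uncounted genes also differed from each other, with 38 CpG pairs and 77.7% GC in PRKCB and 11 pairs and 51.3% GC in PRKCQ. The median window held 14 CpG pairs.

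The genes around PKC were described from 7 lists with 79 entries, of which 65 were tested. In all, 5 were called higher and 2 lower, where 2.25% and 2.72% of all tested genes were, and the median fold of the 65 was 1.02. A gene is called where it passed the edgeR test (Benjamini-Hochberg adjusted p under 0.05), which here compares 2 libraries and not 2 conditions.

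Of the enzymes that make and remove diacylglycerol, none was called (0 of 11 phospholipase C genes and 0 of 6 diacylglycerol kinase genes tested). The median folds were 1.02 and 1.07. PLCB3 and PLCB4, phospholipases driven by G protein-coupled receptors, had the most reads of the first list, at 1.06 (0.991 to 1.13) and 1.02 (0.931 to 1.13). DGKE and DGKD, which phosphorylate diacylglycerol, were at 0.953 (0.855 to 1.06) and 1.09 (0.973 to 1.23). The intervals of PLCB2, at 1.24 (1.01 to 1.52), and PLCD1, at 0.64 (0.44 to 0.92), did not include 1.

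Of the 11 genes for kinases, phosphatases and chaperones that prime or reset PKC, 0 were called, with a median fold of 1.01. HSP90AB1, a chaperone gene, had the most reads and stood at 1.02 (0.993 to 1.04), and MTOR, the kinase of the complex that phosphorylates the PKC tail, also at 1.02 (0.956 to 1.08). PDPK1, which phosphorylates the activation loop of PKC, was at 0.907 (0.758 to 1.08). The intervals of RICTOR, at 0.90 (0.83 to 0.98), and PHLPP2, at 0.80 (0.66 to 0.97), lay below 1. Those of the other genes of this list included 1.

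Among 6 tested anchoring proteins 1 was higher. This was RACK1, a scaffold for activated PKC and also a ribosomal subunit protein, with 21678 and 22644 reads in siNTC and 22105 and 23215 in siZBTB7A, at 1.08 (1.07 to 1.10). COPB2, a coatomer subunit that binds PKC epsilon, was at 0.976 (0.921 to 1.03). Of 12 partners of the atypical isoforms 1 was higher, SQSTM1, which encodes the scaffold p62, at 1.10 (1.03 to 1.17). CDC42, the small GTPase of the polarity complex, was at 1.09 (1.02 to 1.17) and was not called. The median folds of these lists were 1.07 and 1.06.

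The PKC substrates held the most calls. Of 8 tested, 3 were higher and 1 lower, where 2.25% and 2.72% of all tested genes were, and the median fold was 1.05. The called substrates had 1537 to 5813 reads in siNTC, and the part of read number in the calls was not tested. MARCKS, an actin-binding substrate released from the membrane on phosphorylation, had 944 and 1006 reads in siNTC and 1031 and 1135 in siZBTB7A and was at 1.18 (1.11 to 1.25). PEBP1, a Raf kinase inhibitor, was at 1.11 (1.07 to 1.15). PPP1R14B, a phosphatase 1 inhibitor, had 1670 and 1687 reads in siNTC and 2161 and 2240 in siZBTB7A and was at 1.39 (1.33 to 1.45). ADD3, the gamma adducin of the membrane skeleton, was the lower one, at 0.873 (0.810 to 0.941). MARCKSL1, a close relative of MARCKS, was at 0.978 (0.924 to 1.03).

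Of 11 tested related kinases and other diacylglycerol receptors 1 was lower, UNC13B, a vesicle priming gene, at 0.890 (0.826 to 0.959). The median fold was 0.958. UNC13D had 18 reads in siNTC and 37 in siZBTB7A, at 2.18 (1.21 to 4.06), and was not called. Of these 7 called genes, MARCKS, PEBP1, PPP1R14B and RACK1 were called under all 10 alternatives. ADD3, SQSTM1 and UNC13B were called under 5, 4 and 3 of them, and none of these 3 with the GC and length correction or with DESeq2. SQSTM1 and UNC13B were also not called with unstranded counts or without a low-count filter. Among left-out tables, ADD3 was lost without siNTC 2, siZBTB7A 1 or siZBTB7A 2, SQSTM1 without siNTC 1 or siZBTB7A 1, and UNC13B without siNTC 1, siNTC 2 or siZBTB7A 2.

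**Figure D5:**
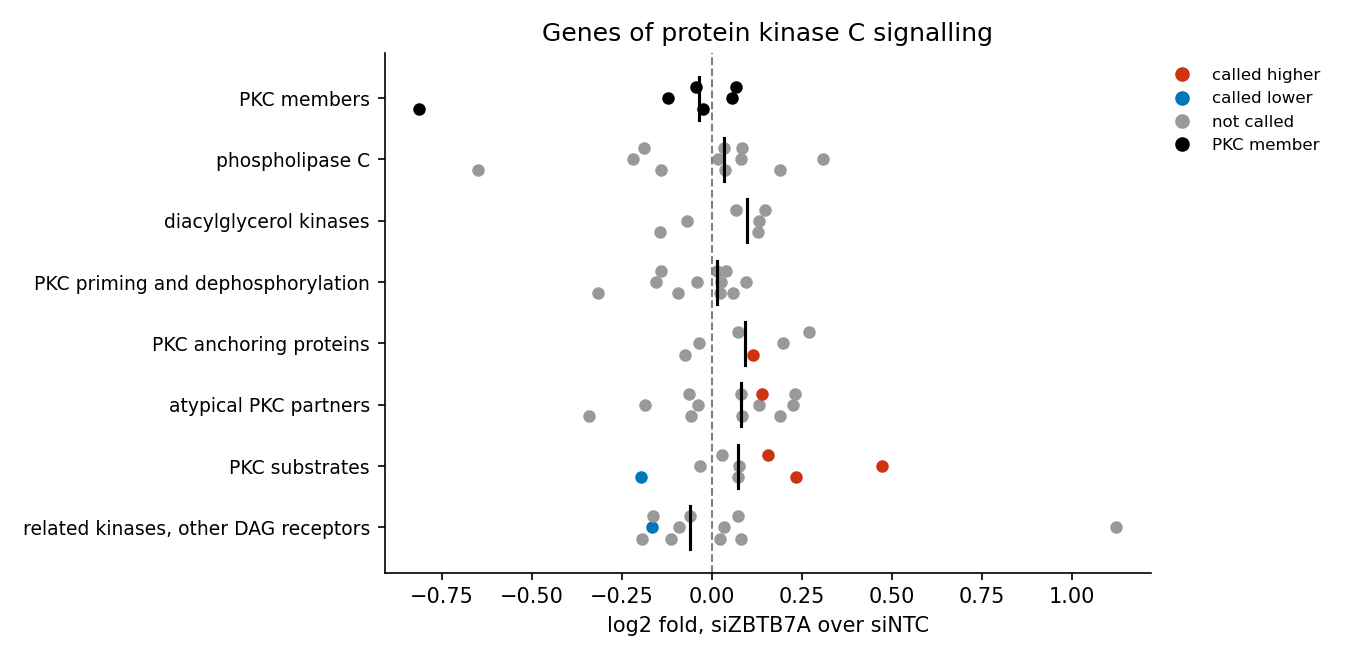
Log2 fold of siZBTB7A over siNTC (x axis) for the 6 PKC genes with reads (black) and the tested genes of 7 lists around PKC, coloured by call, with the median of each list as a bar and that of all tested genes as a dashed line. The 5 genes called higher are spread over 3 lists. PRKCE, which was chosen for its low fold, lies further left than any tested gene of the lists.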

How the data were processed

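RNA-seq was done on VCaP cells, with total RNA libraries made by a stranded kit, per the labels' protocols. The authors deposited whole-number read counts per gene, not normalized, in 3 columns (unstranded and each strand). The aligner STAR 2.4.2a and, as builds, hg19 and GRCh37 appear in the submitters' processing notes. Which annotation release was used is not given here. Column 4 was used, because its gene reads exceeded those of the opposite strand by 24.9 to 25.5 times. Rows that name no gene (50.8% to 51.2% of reads) were left out. Names, lengths and GC content came from GENCODE 29, on another build, which matched 55698 of 60308 identifiers. TPM was computed over the matched genes.

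The test over all genes was edgeR 4.0.16 (R 4.3.3, robust quasi-likelihood, TMM, filterByExpr, group only), with an adjusted p under 0.05. It called 289 genes higher and 350 lower of 12848. Folds come from summed tables, with exact (Clopper-Pearson) intervals, and TPM intervals are exact Poisson, all at 95%. Same-numbered tables showed no shared deviation (correlation -0.015 over 5462 genes). Alternatives were DESeq2 1.42.0 and its size factors, unstranded counts, no low-count filter, a replicate block, leaving out each table, 2 other lengths, and a spline on GC content and length. Other steps used pandas 2.3.3, scipy 1.17.1 and matplotlib 3.10.9 under Python 3.11.15.

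The members and gene lists were chosen with earlier results of these data known. Named genes were the 8 members, ZBTB7A, called list genes, the 2 most read tested genes of each pathway list and the 5 nearest to PRKCE. A few genes that the rule or the lists take are not reported here. PDPK1, RICTOR, PHLPP2, MARCKSL1, UNC13D, PLCB2, PLCD1, PICK1, PARD3B, PAWR, the overlapping genes and the markers were named after their values were seen. Of 112 list entries, 111 were matched. Of 9 luminal markers 4 were called higher, where 2.25% of all tested genes were. These were KLK2, HOXB13, FOLH1 and SLC45A3, at folds of 1.024, 1.082, 1.157 and 1.155. In siNTC they had 46253, 4554, 4069 and 2953 reads, and the part of read number in the calls was not tested. The 8 fibroblast markers had 203 and 161 reads per group, most from LUM (178 and 144), and 5 endothelial markers had 9 and 9.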

Additional observations from a re-analysis of the deposited data

How the results depend on the processing

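All 48 log2 folds of the 6 counted PKC genes under the alternatives stayed within the counting interval of the reported value. The alternatives reuse the same reads, and PRKCE was chosen by its fold, so this is no separate check. For PRKCE the log2 folds ranged from -0.88 to -0.75, with -0.81 under the replicate block and -0.80 with the GC and length correction. PRKCA, PRKCD and PRKCI each changed sign once, within ranges of -0.04 to 0.02, -0.11 to 0.01 and -0.02 to 0.13. The level of PRKCE in siNTC was 3.79 TPM per longest transcript and 9.36 TPM per coding length, against 2.43 TPM per merged exon length, as a shorter length gives a higher value. The 639 genes called became 85 with DESeq2, 373 with the GC and length correction and 303 to 373 without one table, and the count of pathway genes called went from 7 to 4, 4 and 5 to 6. In each fit that left out a table, 5 of the 7 remained, and without siNTC 1 PAWR, an atypical PKC partner not among the 7, was called as well, as it was with unstranded counts. The cause was not tested for DESeq2. The replicate block called 654 and 7, and changed none of the 7 calls. Without a low-count filter 502 genes and 5 pathway genes were called. PRKCE rests on 158 and 85 reads, which sets the width of its interval.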
